A study of Sus scrofa with 2 samples.

Results

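miR-103 and miR-107 are sister microRNAs whose mature sequences differ by a single base near the 3′ end, and they are described here in pig testis before and after sexual maturity. Whole testis was taken from boars of the white Chinese breed Junmu-1 at 30 days of age (sexually immature) and at 180 days (sexually mature). Per the labels, each age is a pool of total RNA from 3 boars, whose small RNA was sequenced as 1 library on an Illumina 1G instrument, so no value below has a replicate error. The members are all sequence tags that the authors' lists name miR-103 or miR-107 on either arm, whatever the species of the name. These were 2770 of the 110931 tags in both lists and 4 of 1385 names with their arms. They held 154110 of the 7525725 miRNA-matched reads at 30 days (2.05%) and 22109 of the 852209 at 180 days (2.59%). No tag was named miR-103a or miR-103b.

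Both miRNAs are processed from introns of pantothenate kinase genes, which encode the first enzyme of coenzyme A synthesis. Mature miRNAs guide Argonaute proteins to messenger RNAs mainly through the seed, bases 2 to 8, and sister miRNAs with 1 seed are predicted to share most targets. miR-103 and miR-107 are known as regulators of insulin sensitivity, lipid metabolism and the cell cycle, and Dicer is among their known targets. In the RefSeq annotation of Sscrofa11.1, pig MIR103-1 lies within the span of PANK3, MIR103-2 within that of PANK2 and MIR107 within that of PANK1, which at this place overlaps a gene without a symbol. No expression of these host genes was measured here.

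The main-arm entries named in the lists are shown because their ends decide which reads can be told apart. Capitals mark the seed and, where the entry reaches it, base 22, counted from the 5′ end, the only position at which the full-length forms differ.
hsa-miR-103: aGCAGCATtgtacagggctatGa
hsa-miR-107: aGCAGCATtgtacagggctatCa
bta-miR-107: aGCAGCATtgtacagggctatC
cfa-miR-107: aGCAGCATtgtacagggctat
The human entries hsa-miR-103 and hsa-miR-107 have 23 bases, the cattle entry bta-miR-107 has 22 and the dog entry cfa-miR-107 has 21. The dog entry therefore stops before the base that separates miR-107 from miR-103, and a tag identical to it is equally the first 21 bases of miR-103. All 4 entries share the seed GCAGCAT.

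By the names given in the lists, both miRNAs were among the abundant miRNAs of the testis at both ages, at nearly equal levels. miR-103 had 73110 reads at 30 days, or 9715 RPM (reads per 1000000 miRNA-matched reads), and 11938 reads (14008 RPM) at 180 days. miR-107 had 80972 reads (10759 RPM) at 30 days and 10169 reads (11932 RPM) at 180 days. By level, miR-103 ranked 21 of 1184 names at 30 days and 20 of 904 at 180 days, and miR-107 ranked 18 and 23. miR-107 was thus the higher of the pair at 30 days and the lower at 180 days.

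Taken as 180-day over 30-day RPM, the ratio was 1.44 for miR-103 (exact 95% interval 1.41 to 1.47) and 1.11 for miR-107 (1.09 to 1.13). Intervals here cover counting error only, and reads amplified by PCR without molecular identifiers are not independent molecules. Neither miRNA met the rule for a called difference, a ratio of 2 or more or of 0.5 or less with an interval that excludes 1. Of the 469 names with 20 or more reads over both libraries, 41.6% met it, 29.4% as higher and 12.2% as lower at 180 days. The ratios describe shares of the miRNA pool and their direction rests on the scaling. With TMM scaling, run on all names without a read minimum, the ratio of miR-103 was 0.766 and that of miR-107 was 0.589. This shifts every log2 ratio by -0.91, while the median log2 ratio of the 448 tested names with reads in both libraries was 0.23. If the tag numbers rank all tags of a library by count, miRNA-matched reads made up at most 7.08% of the whole 180-day library. At 30 days they made up at most 59.2%. Per read of the lowest whole-library totals, both ratios were lower still (0.172 and 0.133). As each total is a lower bound, these ratios are neither an upper nor a lower bound. The comparison of the sister miRNAs with each other, below, is free of the scaling.

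The reads named miR-107 were for the most part reads that cannot be assigned. The dog entry took 54200 of them at 30 days (66.9%) and 8161 at 180 days (80.3%). The human entry of miR-107 took 13482 reads (16.7%) at 30 days and 722 (7.10%) at 180 days, and the cattle entry 13290 (16.4%) and 1286 (12.6%). As RPM, the entries moved in different directions: the dog entry had a ratio of 1.33 (1.30 to 1.36), the cattle entry 0.855 (0.806 to 0.905) and the human entry 0.473 (0.438 to 0.510). The near-equal levels by name thus mixed a large class of short reads with a smaller class of reads that carry the miR-107 base.

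Base 22 was therefore read in each main-arm tag after placing the tag on the shared 21 bases. At 30 days, 67549 of 154082 reads carried the base of miR-103 (43.8%, exact binomial 95% interval 43.6 to 44.1%) and 24886 that of miR-107 (16.2%, 15.97 to 16.3%). At 180 days, 10941 of 22107 reads carried the base of miR-103 (49.5%, 48.8 to 50.2%) and 1572 that of miR-107 (7.11%, 6.78 to 7.46%). The base of miR-103 was the more common one in both libraries. Reads that did not reach base 22 made up 35.8% at 30 days (55104 reads) and 37.6% at 180 days (8312 reads), and a further 4.05% and 5.64% carried A or T there, the base of neither miRNA. The remaining 302 and 35 reads had more than 2 mismatches over the shared bases and were not placed.

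**Figure D1:**
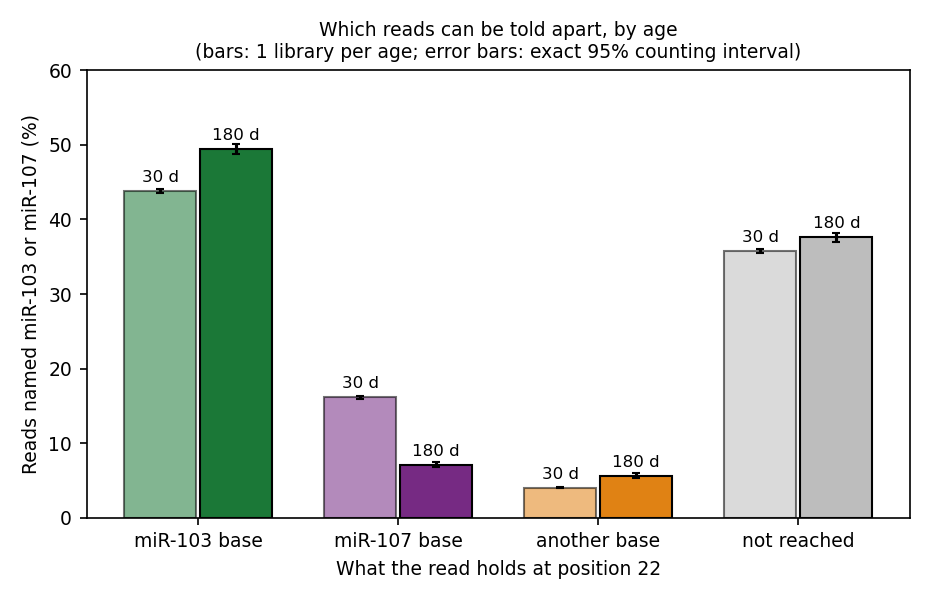
Share of the main-arm reads named miR-103 or miR-107 (vertical axis, percent) by what the read holds at position 22, with light bars for 30 days and dark bars for 180 days and exact 95% counting intervals. The miR-107 base went from 16.2 to 7.11% of reads and the miR-103 base from 43.8 to 49.5%, while reads that stop short of the position took 35.8 and 37.6%.

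Among the reads that carry either separating base, the share with the miR-107 base was 26.9% at 30 days (24886 of 92435 reads, 26.6 to 27.2%) and 12.6% at 180 days (1572 of 12513, 11.99 to 13.2%). In other words, there were 2.71 miR-103 base reads for each miR-107 base read in the 30-day library and 6.96 in the 180-day library. The odds of the miR-107 base were 2.56-fold lower at 180 days (exact 95% interval 2.43 to 2.71). This comparison is made within each library, so no scaling between libraries enters it, but with 1 library per age it compares these libraries and not the ages.

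By base, the RPM of miR-107 was below that by name in both libraries. Reads with the miR-107 base were at 3307 RPM in the 30-day library and at 1845 RPM in the 180-day one, a ratio of 0.558 (0.530 to 0.587), which is below 1 where the ratio by name was above 1. Reads with the miR-103 base were at 8976 and 12838 RPM, a ratio of 1.43 (1.40 to 1.46), close to that by name. Neither passed the 2-fold rule. By level, the miR-107 base reads would rank 36 at 30 days and 57 at 180 days among the names, and the miR-103 base reads 22 and 21. Of the 448 tested names with reads in both libraries, 19.9% had a ratio below that of the miR-107 base reads and 57.1% a ratio below that of the miR-103 base reads. The median log2 ratio over these names was 0.23.

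**Figure D2:**
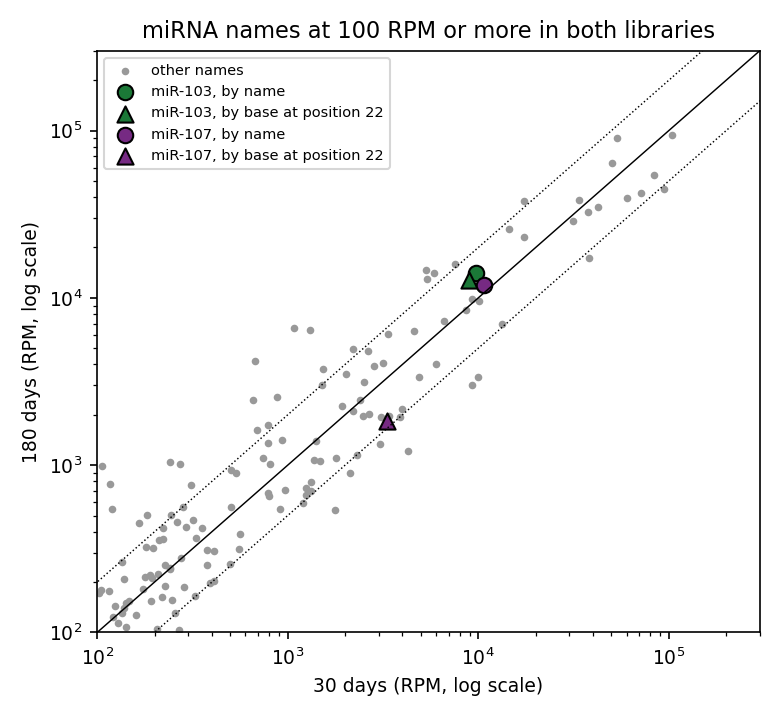
RPM at 30 days (horizontal axis, log scale) and 180 days (vertical axis, log scale) of the 140 other names at 100 RPM or more in both libraries, with the member miRNAs by name (circles) and by the base at position 22 (triangles). The solid line marks equal levels and the dotted lines the 2-fold rule. miR-107 lies at 10759 and 11932 RPM by name and at 3307 and 1845 RPM by base, while both symbols of miR-103 lie close together.

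The level of each miRNA is bounded by the reads that carry its base and by those reads plus all that stop before it. For miR-107 this range ran from 3307 to 10629 RPM in the 30-day library and from 1845 to 11598 RPM in the 180-day library, and for miR-103 it was 8976 to 16298 and 12838 to 22592 RPM, reads with another base at position 22 left aside. With those left aside, the ranges overlap in the 30-day library and not in the 180-day library, where miR-103 lay above miR-107 however the short reads were assigned. The gap there, from 11598 to 12838 RPM, is narrower than the 1463 RPM of reads with another base at position 22. If all of those were miR-107 as well, the ranges would overlap at 180 days too. With all short reads given to miR-107 in both libraries, its ratio would be 1.09. With all given to miR-103, that of miR-103 would be 1.39. If the short reads were split in proportion to the bases seen in the same library, miR-107 would be at 5278 and 3070 RPM, a ratio of 0.582, and miR-103 at 14327 and 21367 RPM, a ratio of 1.49. This split assumes that both miRNAs stop before base 22 equally often. Among reads that reach it, the miR-107 base reads ended at base 22 more often than the miR-103 base reads (44.2 against 24.4% at 30 days, 47.1 against 23.1% at 180 days).

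The most read tags show the same contrast one sequence at a time. They are printed with the bases after position 21 in capitals because those bases carry all the difference.
named miR-107 (cfa), 21 bases: agcagcattgtacagggctat
named miR-103 (hsa), 22 bases: agcagcattgtacagggctatG
named miR-103 (hsa), 23 bases: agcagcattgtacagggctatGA
named miR-107 (bta), 22 bases: agcagcattgtacagggctatC
named miR-107 (hsa), 23 bases: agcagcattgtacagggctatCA
named miR-107 (bta), 22 bases: agcagcattgtacagggctatT
named miR-103 (hsa), 22 bases: agcagcattgtacagggctatA
named miR-103 (hsa), 23 bases: agcagcattgtacagggctatGT
named miR-103 (hsa), 24 bases: agcagcattgtacagggctatGAT
The full miR-103 of 23 bases went from 39449 reads (5242 RPM) in the 30-day library to 5882 reads (6902 RPM) in the older one, a ratio of 1.32 (1.28 to 1.35). miR-103 ending at base 22 went from 15567 to 2344 reads, and its RPM ratio was 1.33 (1.27 to 1.39). The full miR-107 had 10908 reads (1449 RPM) and 519 reads (609 RPM), a ratio of 0.420 (0.384 to 0.459), which met the 2-fold rule. miR-107 ending at base 22 had 10425 and 684 reads, a ratio of 0.579 (0.535 to 0.626). As RPM, the intervals of these miR-103 forms and of the miR-107 forms lie on opposite sides of 1. The side of 1 rests on the scaling, while the gap between the forms of miR-103 and of miR-107 does not.

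The most read tag of all, the 21 bases that both miRNAs share, had 47602 reads (6325 RPM) at 30 days and 7204 reads (8453 RPM) at 180 days. Its ratio of 1.34 (1.30 to 1.37) lies within the counting intervals of miR-103 ending at base 22 and at base 23, and outside those of the matching miR-107 forms. The lists name this tag miR-107. The tag shorter by 1 base, of 20 bases, had 2728 and 305 reads, with the RPM ratio at 0.987 (0.874 to 1.11).

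**Figure D3:**
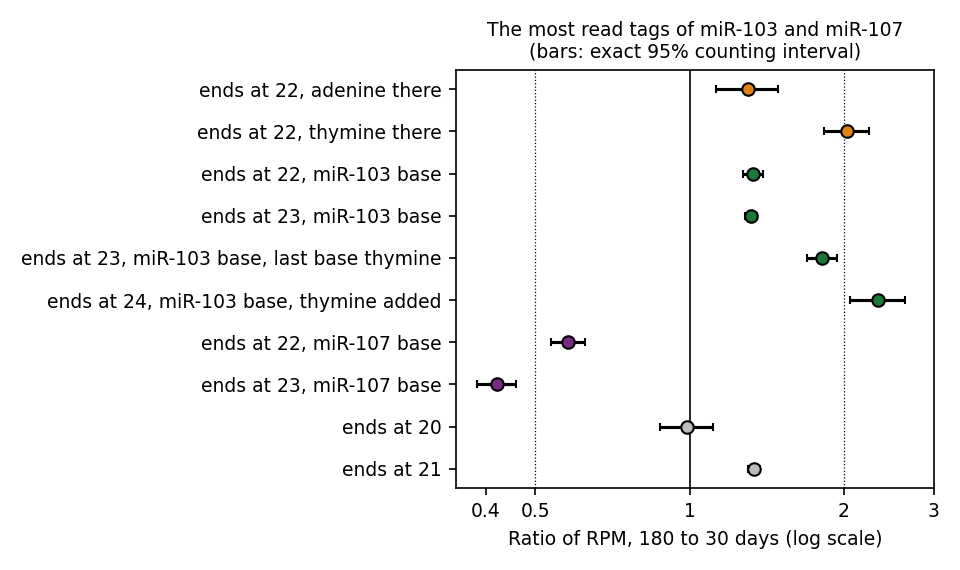
Ratio of RPM, 180 over 30 days (horizontal axis, log scale) of the 10 most read tags of both names, described by where they end, with exact 95% counting intervals; the solid line marks a ratio of 1 and the dotted lines the 2-fold rule. The miR-107 base forms lie at 0.579 and 0.420, the miR-103 base forms between 1.32 and 2.33 and the shared 21 bases at 1.34.

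For the entries that reach position 22, names and bases mostly matched. Of the reads named hsa-miR-107, 99.6% carried the miR-107 base at 30 days and 99.0% at 180 days. Of those named hsa-miR-103, 92.4% and 91.5% carried the miR-103 base. The cattle entry was less clean: 82.9% of its reads carried the miR-107 base at 30 days and 57.7% at 180 days, and 16.5% and 39.8% carried A or T at base 22. The miR-107 tag with T at base 22 printed above, which is also the shared 21 bases with T added, had 2015 reads at 30 days and 463 at 180 days out of 2187 and 512 such reads of the cattle entry.

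Mismatches at the shared positions were far rarer than the miR-107 base at position 22. The shares that follow are from tags that start at base 1 and hold at most 1 mismatch over the shared bases. Tags with more mismatches were left out, which lowers these shares on average. The share of reads with another base at a shared position had a median of 0.204% over the 21 positions at 30 days (range 0.0575 to 0.933%). At 180 days the median was 0.276% (0.0782 to 1.11%). The highest share stood at position 21 in both libraries. At the 6 shared positions where both miRNAs have G, C was read in 0.0172 to 0.0594% of reads at 30 days and in 0.0276 to 0.129% at 180 days. Position 22 itself has no error rate of its own here, since the tags were listed by their match to either miRNA.

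**Figure D4:**
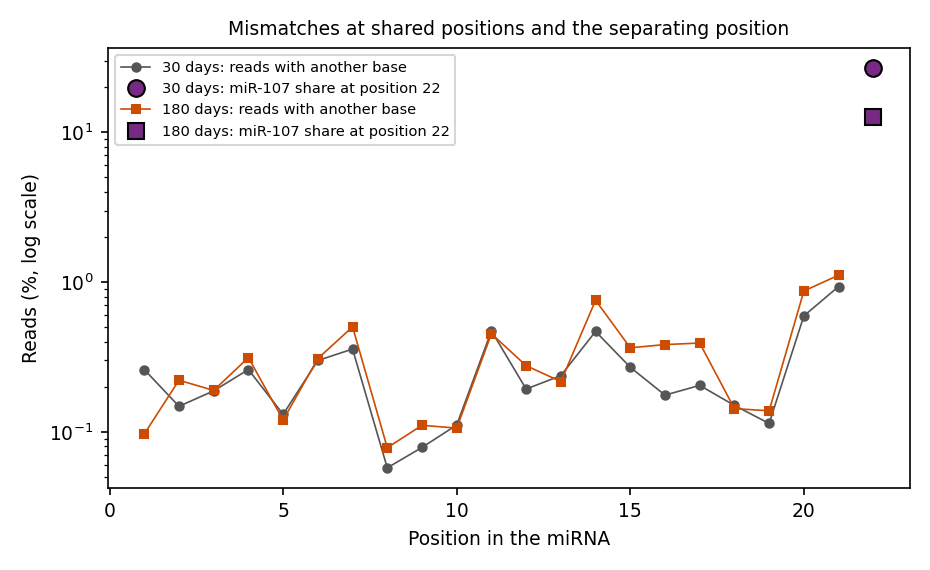
Percent of reads (vertical axis, log scale) with a base other than the shared one at positions 1 to 21, at 30 days (circles) and 180 days (squares). Only tags that start at base 1 with at most 1 mismatch over these positions enter. The miR-107 share of the separable reads at position 22 is drawn as large symbols. The shared positions lie between 0.0575 and 1.11%, and the shares at position 22 are 26.9 and 12.6%.

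The sister miRNAs also differed in where their reads ended. Of the reads with the miR-103 base, 24.4% ended at base 22 at 30 days (16474 of 67549, 24.1 to 24.7%) and 23.1% at 180 days (2528 of 10941, 22.3 to 23.9%). Of the reads with the miR-107 base, 44.2% ended there at 30 days (11001 of 24886, 43.6 to 44.8%) and 47.1% at 180 days (741 of 1572, 44.6 to 49.6%). Ends at base 22 thus took a larger share of the miR-107 base reads than of the miR-103 base reads in both libraries. The form of 23 bases with the last base A, that of the full entries, took 62.8% of the miR-103 base reads at 30 days and 58.3% at 180 days, and 46.3% and 35.8% of the miR-107 base reads. Reads that stop at base 21 or before cannot be given to either miRNA and are not part of these shares.

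**Figure D5:**
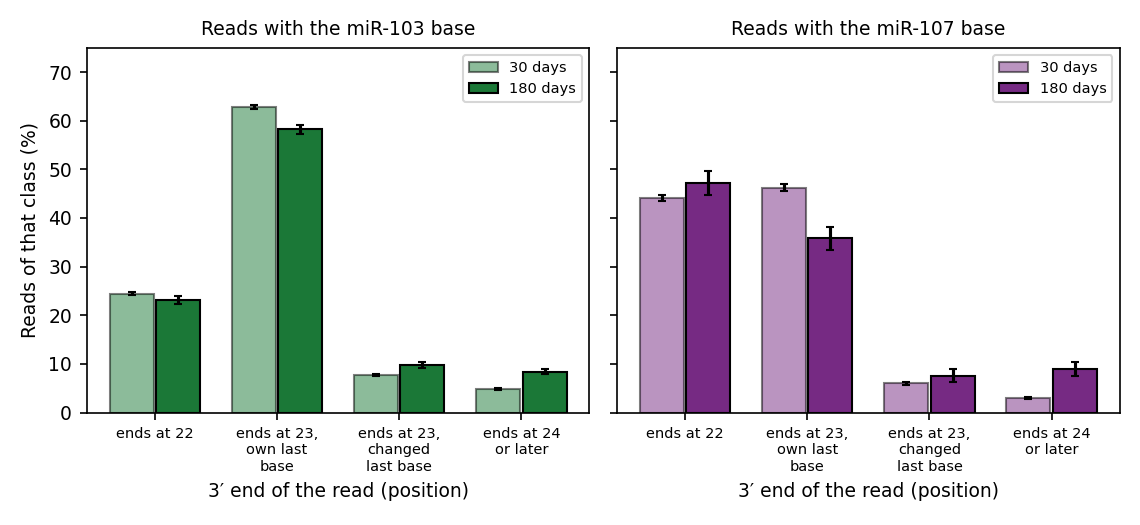
Percent of reads with the miR-103 base (left) and with the miR-107 base (right) by 3′ end, at 30 days (light) and 180 days (dark), with exact 95% counting intervals. Ends at base 22 take 24.4 and 23.1% of the miR-103 base reads and 44.2 and 47.1% of the miR-107 base reads; the rare ends at 23 with G or C there are not drawn.

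Forms of miR-103 and of the shared 21 bases with a T at the 3′ end had higher RPM in the 180-day library. That of miR-107 had lower RPM, as had all miR-107 base reads (ratio 0.558). As a share of the reads with each base, ends at base 23 with T were higher at 180 days for both, for miR-107 with overlapping intervals. Full miR-103 with a T added (24 bases) went from 1241 to 328 reads, which as RPM is a ratio of 2.33 (2.06 to 2.64), and the shared 21 bases with a T had a ratio of 2.03 (1.83 to 2.25). Both met the 2-fold rule. miR-103 with T in place of the last A had a ratio of 1.81 (1.69 to 1.94) and took 7.62 and 9.76% of the miR-103 base reads, while the shared 21 bases with an A had a ratio of 1.30 (1.13 to 1.49). Over all starts, miR-107 base reads that end at base 23 with T were at 198 RPM in the 30-day and 137 RPM in the 180-day library (ratio 0.694, 0.570 to 0.839), and as a share of miR-107 base reads were at 5.98% (5.69 to 6.28%) and 7.44% (6.19 to 8.85%), intervals that overlap. For each 100 reads of the full miR-103 there were 3.15 reads with T added at 30 days and 5.58 at 180 days, and for each 100 of the shared 21 bases 4.23 and 6.43. Over 51 other mature sequences with 1000 or more exact reads in each library, 26 had more T-added reads per exact read at 180 days, with a median ratio of the libraries of 1.00. Some of those sequences are shorter entries of a miRNA whose longer entry is also among the 51, and the T is then its next base. An example is dme-let-7, which with a T is cel-let-7 (513993 reads at 30 days). In the others the added T can be the next base of the precursor, which was not checked.

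The 5′ end, which sets the seed, was nearly fixed. Of the placed reads, 98.96% started at base 1 at 30 days and 99.2% at 180 days, and over all miRNA-matched reads 95.1% and 94.1% started at the first base of their own entry. Starts at base 2 made up 0.546% and 0.390%. A start 1 base before base 1 was found in 147 of 153780 placed reads of the 30-day library (0.0956%, 0.0808 to 0.112%) and in 26 of 22072 of the 180-day library (0.118%, 0.0770 to 0.173%), with C as the extra base in 108 and 20 of them. Such a start moves the seed to AGCAGCA, the seed of miR-16, miR-15a, miR-195 and miR-497 shown next with the seed in capitals.
hsa-miR-16: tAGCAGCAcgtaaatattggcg
hsa-miR-15a: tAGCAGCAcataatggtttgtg
bta-miR-195: tAGCAGCAcagaaatattggca
hsa-miR-497: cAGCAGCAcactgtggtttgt
At 30 days the miR-103 base reads started at base 1 in 98.3% and the miR-107 base reads in 99.7%, and at 180 days in 99.0% and 99.4%.

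Read lengths followed from these ends. The members had their largest classes at 23 bases (40.0% of reads at 30 days, 38.1% at 180 days) and 21 bases (33.6% and 35.99%), with 20.8% and 18.6% at 22 bases. Over all miRNA-matched reads, 22 bases was the largest class at both ages (49.7% and 44.7%), and 23 bases took 15.7% and 17.5%. Reads of 25 bases or more were 1.203% and 2.67% of the members' reads and 0.455% and 0.965% of all miRNA-matched reads.

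Most of these long member reads shared 1 ending. Of the members' reads of 25 bases or more, 1183 of 1853 (63.8%) ended in GAAC at 30 days and 388 of 591 (65.7%) at 180 days, against 14.9% and 10.7% of the long reads of all other miRNAs. Per read, long GAAC tags made up 0.768% and 1.76% of the members and 0.0652% and 0.0979% of the other miRNAs. The 3 most read are shown with the bases after position 21 in capitals.
26 bases, C at position 22: agcagcattgtacagggctatCGAAC
26 bases, G at position 22: agcagcattgtacagggctatGGAAC
27 bases, G at position 22: agcagcattgtacagggctatGAGAAC
They had 277, 166 and 101 reads at 30 days and 90, 71 and 38 at 180 days. The first counts as a miR-107 base by its letters although the list names it miR-103. GAAC tags made up 1.51% of the miR-107 base reads at 30 days and 6.42% at 180 days. Without them the miR-107 share of separable reads was 26.8% and 12.1%, and the ratio of the miR-107 base reads 0.530. Where the ending comes from was not tested.

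The opposite arm was almost absent. The entries of this arm are shown with capitals at base 16, the only position at which they differ over their shared length.
hsa-miR-103-2*: agcttctttacagtgCtgccttg
oan-miR-107*: agcttctttacagtgTtgcct
Tags named miR-103* went from 27 reads (3.59 RPM) to 2 (2.35 RPM), a ratio of 0.654 (0.0754 to 2.60), so a 2-fold difference in either direction could not be seen at this depth. miR-107* had 1 read at 30 days and 0 at 180 days, where 3 reads would be 3.52 RPM. The star arms took 0.0182% of both arms' reads in the 30-day library (0.0121 to 0.0263%) and 0.00905% in the 180-day one (0.00110 to 0.0327%). Over the 74 names with a star name and 1000 or more reads at 30 days, the median star share was 0.651%, and 13 of them lay below the members' share. At 180 days these values were 43 names, 0.172% and 7.

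The base at position 16 was that of the name in all but 2 star reads. The single read named miR-107* carried C there, the base of miR-103*, and 1 of the 27 reads named miR-103* at 30 days carried T, the base of miR-107*. Of the 28 star reads at 30 days, 20 began with A and 8 with G. Both reads at 180 days began with A and carried the miR-103* base.

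miR-103 and miR-107 belong with miR-15, miR-16, miR-195, miR-424, miR-497 and miR-503 to the group of miRNAs with AGCAGC at or next to the 5′ end. Of the 11 names of the other members with 20 or more reads, star arms included, 5 met the rule as higher at 180 days and 0 as lower, beside 29.4% and 12.2% of all names tested. Among these 5 were the star arms miR-15b*, with 45 reads at 30 days and 28 at 180 days, and miR-16*, with 33 and 19. The median log2 ratio was 0.57 beside 0.23 for all names. miR-16, an inhibitor of cell cycle genes, had 2209 and 4932 RPM, a ratio of 2.23 (2.16 to 2.31), miR-195 a ratio of 2.20 (2.08 to 2.33) and miR-497 of 2.43 (2.22 to 2.65). miR-15a and miR-15b had ratios of 1.46 (1.30 to 1.63) and 1.48 (1.38 to 1.59), near that of miR-103. Below 1 lay miR-503 (0.5999, 0.554 to 0.649), miR-424* (0.594, 0.539 to 0.653), miR-424 (0.824, 0.723 to 0.935) and miR-322 (0.784, 0.745 to 0.824), the rodent name of miR-424. The ratio of the miR-107 base reads, 0.558, lies within the intervals of miR-503 and miR-424*.

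Of miRNAs otherwise linked to lipid and glucose metabolism, 5 names had 20 or more reads, of which 2 were higher at 180 days, 1 was lower and 2 were neither, against 29.4% higher and 12.2% lower over all names tested. miR-33a, which lies in the sterol regulator gene SREBF2, went from 879 reads (117 RPM) to 48 (56.3 RPM), a ratio of 0.482 (0.353 to 0.645). miR-33b had 30 reads and 1 read. miR-378, from the coactivator gene PPARGC1B, had 502 and 935 RPM, a ratio of 1.86 (1.72 to 2.01). miR-122, the main liver miRNA, and miR-375, an islet miRNA, had ratios of 10.2 (8.22 to 12.7) and 60.8 (30.1 to 139).

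The names nearest to each member in level, by the distance between log2 RPM values over the 2 libraries and among 294 mammalian names with 100 or more reads, were led by let-7g for both. let-7g, at 11410 and 12078 RPM, was 0.32 log2 units from miR-103 and 0.09 from miR-107. miR-26a (9213 and 9899 RPM), miR-10b (10045 and 9519 RPM) and miR-30d (7539 and 15907 RPM) were also among the 5 nearest of both, with miR-202* as the fifth for miR-103 and miR-21 for miR-107. The likeness for miR-107 is that of its name, short reads included.

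The levels of miRNAs used as cell type markers differed between the libraries. The counts of called names below stand beside 29.4% higher and 12.2% lower over all names tested. In whole tissue, fewer cells of a type and less miRNA per cell cannot be told apart. The miR-34b/c and miR-449 names, markers of meiotic and later germ cells, summed to 11.4 RPM in the 30-day and to 35278 RPM in the 180-day library, with 8 of 8 measured names higher and miR-34b-5p and miR-449b* at 0 reads at 30 days. miR-202, a miRNA known from gonads, summed to 68481 and 110872 RPM, with 1 of 4 names higher and a median log2 ratio of 0.09. Its names differed in direction: miR-202-5p and miR-202* had ratios of 1.70 and 2.39, miR-202 and miR-202-3p of 0.667 and 0.628. The mesenchymal list (miR-199a and miR-214) went from 62151 to 40404 RPM with 0 of 4 names called and a median log2 ratio of -0.45. The name miR-199, which is outside the list and was chosen after its values were seen, fell past the rule, at 38163 and 17297 RPM with a ratio of 0.453 (0.446 to 0.461). Smooth muscle miR-143 and miR-145 went from 6581 to 17994 RPM with 3 of 4 names higher, and the striated muscle list from 1432 to 6550 RPM with 2 of 4 higher. Most of the striated muscle sum was miR-1 (1305 and 6399 RPM). The other higher name, miR-133a*, had 24 and 20 reads. miR-206 had a ratio of 1.02 (0.827 to 1.25), and miR-133a, with 21 and 4 reads, of 1.68 (0.420 to 4.99). The endothelial miR-126 names summed to 381 and 629 RPM with 0 of 3 called, and the red blood cell list to 1742 and 3933 RPM with 1 of 4 higher. That list had a median log2 ratio of -0.23: miR-451 had a ratio of 2.46, and miR-144, miR-144* and miR-486-5p had ratios of 0.833, 0.868 and 0.697. The white blood cell list summed to 168 and 194 RPM with 1 of 5 higher. The part of these cell types in the lower share of the miR-107 base was not tested.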

How the data were processed

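Per the labels' protocols, each library is a pool of testis RNA from 3 boars, RNA of 18 to 30 nucleotides was cut from a gel, and libraries were amplified with 15 PCR cycles. Each list deposited by the authors gives distinct tags with their raw read count, 1 miRNA name and sequence, and an alignment score, which was not used. Aligner, miRBase version and genome build: not given in the sources used here. No coordinates are therefore printed. Names were pooled after dropping species prefix and copy number, with the arm kept; this differs from merging entries by sequence. RPM are counts over 1000000 miRNA-matched reads. Ratios have exact conditional (Clopper-Pearson) 95% intervals and shares exact binomial ones; with 1 library per age no test was possible. Tags were placed ungapped on the shared 21 bases, with up to 2 mismatches. Scripts were tested on simulated data. Scaling factors came from edgeR 4.0.16 (TMM) and DESeq2 1.42.0 (median of ratios), the rest from Python 3.11.15 and scipy 1.17.1. Whole-library totals rest on reading the tag numbers as ranks over all tags. The miRNAs named were all members, the fixed lists, the 5 nearest names and the 5 most read tags per name and library; the GAAC tags, T-added tags and the star-arm bases were chosen after their values were seen. Members and lists were chosen with earlier results of these data known.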

Additional observations from a re-analysis of the deposited data

How the results depend on the processing

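By name, the ratios of miR-103, miR-107 and their sum turned below 1 with TMM scaling (0.766, 0.589 and 0.673), with median-of-ratios scaling (0.776, 0.597 and 0.682) and per read of the whole library at its lowest totals (0.172, 0.133 and 0.152), which shift every log2 ratio by -0.91, -0.89 and -3.06. TMM and median-of-ratios scaling were both run on all names without a read minimum. The part of names with few reads in their shifts was not tested. The median log2 ratio of the 448 tested names with reads in both libraries was 0.23. With perfect matches only the ratios were 1.41, 1.15 and 1.25, and without tags of 1 read they stayed within their intervals. With each tag compared with every mammalian entry and ties split, miR-103 had 1.40 and miR-107 1.05. With all short reads given to miR-107 in both libraries, its ratio was 1.09. For miR-107 the ratio turned to 0.558 from reads with its own base, to 0.530 without long GAAC tags as well, and to 0.582 with the short reads split in proportion; for miR-103 the last 2 settings, which like all settings with GAAC tags were chosen after seeing the data, gave 1.41 and 1.49. The miR-107 share of separable reads was 21.1% at 30 days and 7.66% at 180 days in tags that also match base 23 (odds ratio 0.311), and 33.0% and 22.5% in distinct tags in place of reads (0.591), against an odds ratio of 0.390 over all reads. It stayed within its intervals without mismatches over bases 1 to 21, without tags of 1 read and without GAAC tags. Without GAAC tags, 44.9% and 50.4% of the miR-107 base reads ended at base 22; this and the same share without tags of 1 read were also added after seeing the data. Of all names, 195 met the 2-fold rule (138 higher, 57 lower); with TMM scaling 72 were higher and 161 lower, with median of ratios 74 and 161, per read of the whole library 27 and 396 (423 in all), with perfect matches 69 and 36 (105), with 100 or more reads 77 higher (125 in all), and with no minimum 251 higher (308 in all). Without tags of 1 read 114 were higher and 81 lower. The other scalings move these counts because they shift every log2 ratio by the amounts given above, and fewer or more names enter with another minimum. For the setting on base 23, A there was held by 47.4% of the miR-107 base reads and 66.5% of the miR-103 base reads at 30 days. At 180 days these shares were 37.0 and 64.6%. The cause of the remaining shifts was not tested. No paired analysis was possible because each age has 1 library. One read was worth 0.133 RPM at 30 days and 1.17 RPM at 180 days, which limits the star arms at 180 days.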
